A study of Mus musculus with 8 samples.

Results

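The genes described here are 36 members of the integrated stress response and the unfolded protein response, chosen by name from knowledge of the pathways, with earlier results of these arrays known. All 36 had at least 1 probe set with a single gene symbol, among 18193 genes measured in all. The arrays came from T29, a mouse thymic lymphoma cell line that lacks Ikaros, the zinc finger transcription factor encoded by Ikzf1. Total RNA was hybridised to Affymetrix arrays, 1 array per sample, and the submitters deposited log2 values made with RMA, a summary of the probes of each probe set after background correction and normalization between arrays. There were 4 groups of 2 arrays: Ik1ER cells in 4OHT, Ik1ER cells in ethanol, MigR1 cells in 4OHT and MigR1 cells in ethanol. Ik1ER cells carried the MigR1 retroviral vector with Ik1ER, an inducible Ikaros protein whose "ER" stands for estrogen receptor, and MigR1 cells carried the vector alone. 4OHT is 4-hydroxytamoxifen, the ligand that activates such fusion proteins. It was given at 100 nM for 24 h, and the other arrays received ethanol for the same time. All groups share the one lymphoma line and retroviral transduction, and the labels do not say whether the transduced cells were pools or clones. Nor do they say that the 2 replicates in a group were grown separately, and each p-value measures only the spread between these arrays, which may be technical.

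The integrated stress response begins when kinases such as PERK (Eif2ak3), GCN2, PKR or HRI phosphorylate the translation factor eIF2. General protein synthesis then slows while the messenger RNA of the transcription factor ATF4 is translated more, and ATF4 induces genes of amino acid supply together with the factors CHOP (Ddit3) and ATF3. The unfolded protein response of the endoplasmic reticulum (ER) uses PERK as 1 of its sensors, beside IRE1 (Ern1), which splices the messenger RNA of Xbp1, and ATF6, which is cut in the Golgi and enters the nucleus. XBP1 and ATF6 raise ER chaperones and the machinery of ER-associated degradation (ERAD). Among lymphoid cells, XBP1 is best known from plasma cells, which secrete antibody, and in lymphoblastic leukaemia a shortage of asparagine is known to act through GCN2 and ATF4. An array measures messenger RNA only, so eIF2 phosphorylation, Xbp1 splicing, ATF6 cleavage and translation of Atf4 were not measured here.

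The promoters of the members that passed a test, and of members whose sequence holds a textbook stress element, are shown to let the elements be seen beside the values. RefSeq windows of 250 bases before to 50 bases after the gene start (build GRCm38.p6) were found for 32 of the 36 members. Only the bases before the start are printed, 5′ to 3′ on the gene's own strand. The first pair are Edem1 and Nupr1, the 2 members called in Ik1ER cells, with capitals marking an Ikaros core TGGGAA and a C/EBP-ATF element TGATGNAA, here read on the opposite strand, in Nupr1. Edem1 held no match to any of the 4 motifs searched and has no capitals.
Edem1, chr6:108828391-108828640, plus strand: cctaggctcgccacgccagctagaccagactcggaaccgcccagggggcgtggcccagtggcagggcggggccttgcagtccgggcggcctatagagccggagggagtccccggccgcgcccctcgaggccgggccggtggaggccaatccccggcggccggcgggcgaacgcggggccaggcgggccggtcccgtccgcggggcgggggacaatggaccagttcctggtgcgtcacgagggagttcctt
Nupr1, chr7:126625471-126625720, minus strand: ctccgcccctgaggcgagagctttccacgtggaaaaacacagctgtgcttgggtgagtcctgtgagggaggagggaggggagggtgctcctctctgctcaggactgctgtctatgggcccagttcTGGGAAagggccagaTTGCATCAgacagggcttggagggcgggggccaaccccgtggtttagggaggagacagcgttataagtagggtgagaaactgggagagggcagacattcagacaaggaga

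The next pair show the C/EBP-ATF element, the site of ATF4 with a C/EBP partner, in a cystine transporter gene and in asparagine synthetase. The last pair show the ER stress element (ERSE), a CCAAT box followed after a spacer by CCACG, in the genes of the chaperones BiP and GRP94. Capitals mark the element, which is on the opposite strand in the Hsp90b1 match shown and in the second match of Slc7a11. A further ERSE match of Hsp90b1, on the gene's own strand, lies upstream of the stretch shown.
Slc7a11, chr3:50443627-50443686, minus strand: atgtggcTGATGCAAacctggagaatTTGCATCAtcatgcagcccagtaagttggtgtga
Asns, chr6:7693210-7693258, minus strand: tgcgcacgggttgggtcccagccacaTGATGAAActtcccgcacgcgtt
Hspa5, chr2:34772004-34772063, plus strand: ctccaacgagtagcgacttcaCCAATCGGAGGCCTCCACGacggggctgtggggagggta
Hsp90b1, chr10:86705513-86705572, minus strand: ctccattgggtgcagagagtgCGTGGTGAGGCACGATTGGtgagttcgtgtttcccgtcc

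Both strands of every window were searched. The C/EBP-ATF element TGATGNAA was in the windows of 8 of 32 members (Atf3, Nupr1, Trib3, Chac1, Asns, Slc7a11, Vldlr and Herpud1) and in 3.97% of all 32851 promoter windows. ERSE was in 6 of 32 (Hspa5, Hsp90b1, Calr, Pdia6, Dnajc3 and Creld2) and in 0.119% of all windows. The element UPRE, TGACGTGG, a site of XBP1 and ATF6, was in 0 of 32 and in 0.676% of all windows. The Ikaros core TGGGAA, which is short and frequent, was in 10 of 32 members and in 25.6% of all windows. A match describes the letters of the window and is not a measured binding site.

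The introduced gene was checked first. One Ikzf1 probe set read 11.27 and 10.45 (log2) on the Ik1ER 4OHT arrays, 11.17 and 10.60 on the Ik1ER ethanol arrays, 8.16 and 8.51 on the MigR1 4OHT arrays and 8.12 and 8.14 on the MigR1 ethanol arrays. On this probe set both Ik1ER groups thus read above both MigR1 groups with or without 4OHT. A second Ikzf1 probe set read 9.97 to 10.44 on all 8 arrays. It had the higher mean and stood for Ikzf1 in the fit over genes. Its difference between Ik1ER and MigR1 cells was 0.02 in ethanol and -0.17 in 4OHT. What these probe sets detect in MigR1 cells, of a line that lacks Ikaros, was not tested. The second arrays of both Ik1ER groups stood apart in RNA quality: the 3′ minus 5′ difference of the Tfrc control probe sets was 1.91 on Ik1ER 4OHT replicate 2 and 1.66 on Ik1ER ethanol replicate 2, against 1.15 to 1.39 on the other 6 arrays. The array Ik1ER 4OHT replicate 2 also had a mean of 8.65 for the hybridisation controls, against 9.14 to 9.28 on the others. The part of these arrays in the results was not tested, and calls lost without both of them are named beside each gene. T lineage markers, 8 of 10 measured, averaged 11.76 to 11.77 on the Ik1ER 4OHT arrays and 11.91 to 11.97 on the 6 others, and Cd3g, Cd3e, Cd3d and Ptcra were called lower in Ik1ER cells in 4OHT against ethanol, with differences of -0.69, -0.43, -0.49 and -0.61. Without both second Ik1ER arrays these differences were -0.61, -0.51, -0.43 and -0.65 and none was called (adjusted p 0.0575 to 0.163), and Cd3d and Ptcra kept the call in 1 of 8 fits that left out a single array. Not all T lineage markers fell: over all 8 arrays, 3 of the 8 lay above 0 in Ik1ER cells in 4OHT against ethanol. Their differences reached 0.30, and each had its 4OHT arrays wholly above its ethanol arrays, but 0 were called higher. The other 5 had their 4OHT arrays wholly below. Over all genes 21% lay wholly above and 21.7% wholly below, and 2.53% were called lower. B and plasma cell markers (7 of 8 measured) averaged 5.15 to 5.35 over all arrays, near the 5.27 of the brightest of 15 bacterial control probe sets, with none called in Ik1ER cells. Stromal markers (6) averaged 4.47 to 4.60, with none called. Myeloid markers (7) averaged 5.02 to 5.10 on the Ik1ER 4OHT arrays and 5.20 to 5.34 on the others. These averages, too, lay near the 5.27 of the brightest bacterial control. Cd14 (-1.26) and Lyz2 (-0.60) were called lower and Itgam (0.54) higher in Ik1ER cells in 4OHT against ethanol. In fits that left out a single array, Lyz2 ran from -0.77 to -0.43 and Itgam from 0.44 to 0.63. Itgam was not called without both second Ik1ER arrays. In bulk RNA, fewer cells of a type and less RNA per cell cannot be told apart, and the part of these markers in the members' values was not tested.

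The members covered a wide range of signal. Their means over the 8 arrays ran from 4.07 for Vldlr to 12.79 for Phgdh, but levels of different probe sets cannot be ordered. 34 of the 36 lay above the brightest bacterial control, while Atf3 (4.48) and Vldlr (4.07) lay below it on average and gave little room to detect a fall. Over all 8 arrays the values of a member spanned from 0.07 log2 units for Creld2, an ER-resident protein with a role in folding, to 1.06 for Slc7a11, the cystine transporter xCT. Much of the span of Slc7a11 lay inside groups, as its arrays read 9.08 and 9.36 in Ik1ER cells in 4OHT, 8.45 and 9.18 in Ik1ER cells in ethanol, 8.55 and 9.03 in MigR1 cells in 4OHT and 8.30 and 8.72 in MigR1 cells in ethanol. The second array read higher in each of the 4 groups, and the Ik1ER 4OHT and ethanol arrays overlapped.

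**Figure D1:**
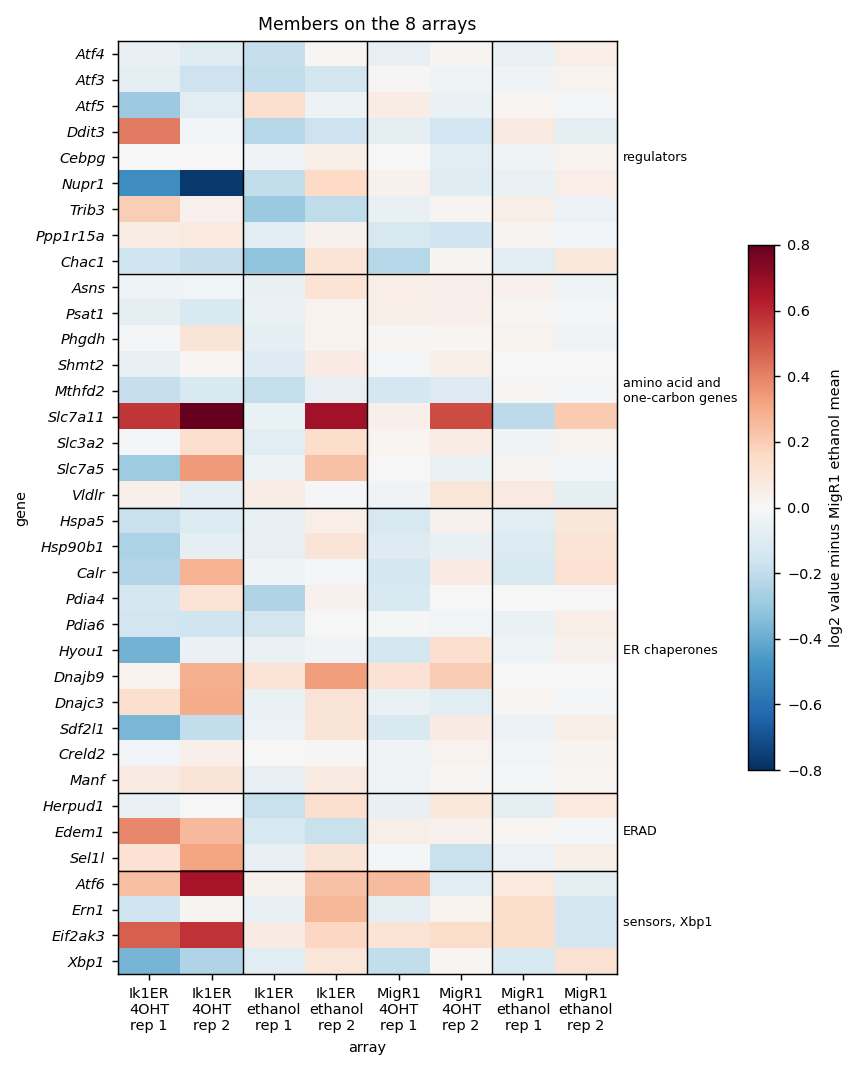
Each cell is the log2 value of 1 member on 1 array minus that member's mean over the 2 MigR1 ethanol arrays, with members in rows by role and arrays in columns. In the Ik1ER 4OHT columns Nupr1 is low and Edem1 and Eif2ak3 are high on both arrays, and Slc7a11 varies between the 2 arrays of every group.

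The central comparison set Ik1ER cells in 4OHT against Ik1ER cells in ethanol, in which induced Ikaros activity and 4OHT itself change together. Edem1, which helps extract misfolded glycoproteins for ERAD, rose, and Nupr1, a small stress-induced chromatin protein under ATF4, fell. The other 34 members did not pass the test. Values were fitted with limma over all 8 arrays, p-values were adjusted by the Benjamini-Hochberg method over all 18193 genes, and a gene was called at an adjusted p under 0.05. By that rule 2 of 36 members (5.56%) were called, against 971 genes or 5.34% of all genes, so the share of members called was near the background. 1 member was higher and 1 lower, against 2.8% of all genes called higher and 2.53% called lower. The 36 differences, 4OHT minus ethanol, ran from -0.62 to 0.47, with 18 above 0 and 18 below. Their median size, without sign, was 0.0891 log2 units, against 0.0971 for all genes. In 27 of 36 members the 95% interval of the difference lay within 0.5 log2 units of 0, and in 35 within 1, Slc7a11 being the exception.

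Edem1 read 12.55 and 12.42 on the Ik1ER 4OHT arrays, against 12.03 and 11.99 on the Ik1ER ethanol arrays. It read 12.21 and 12.20 in MigR1 cells in 4OHT and 12.18 and 12.15 in MigR1 cells in ethanol. The Ik1ER 4OHT arrays were the highest of the 8 and the Ik1ER ethanol arrays the lowest, with the MigR1 arrays between them. The difference in Ik1ER cells was 0.47 (SE 0.07, 95% interval 0.30 to 0.65), a 1.39-fold higher level, with a limma adjusted p of 0.0104. A second Edem1 probe set gave the same 0.47, with an adjusted p of 0.14 when every probe set was tested on its own, where the first had 0.025. The call was lost without Ik1ER ethanol replicate 1 (difference 0.50, adjusted p 0.052) or replicate 2 (0.45, 0.0716), and without both second Ik1ER arrays (0.52, 0.0558).

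Nupr1 read 6.71 and 6.43 on the Ik1ER 4OHT arrays, against 7.01 and 7.37 on the Ik1ER ethanol arrays. It read 7.24 and 7.11 in MigR1 cells in 4OHT and 7.15 and 7.26 in MigR1 cells in ethanol. The Ik1ER 4OHT arrays were the lowest of the 8, and the other 6 overlapped. The difference in Ik1ER cells was -0.62 (SE 0.14, 95% interval -0.93 to -0.30), a 1.53-fold lower level, with a limma adjusted p of 0.0423. Its probe set is of the kind whose probes may match other transcripts, and a second Nupr1 probe set not of that kind gave -0.76. When every probe set was tested on its own, the second had an adjusted p of 0.0141 and the first, at 0.0784, was not called. Without both second Ik1ER arrays the difference was -0.30 (adjusted p 0.283), less than the value over all arrays by more than 1.5 times. It was also not called without Ik1ER 4OHT replicate 2 (-0.48, 0.153), without Ik1ER ethanol replicate 2 (-0.44, 0.194) or without any single MigR1 array (-0.62, 0.0747 to 0.0773).

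**Figure D2:**
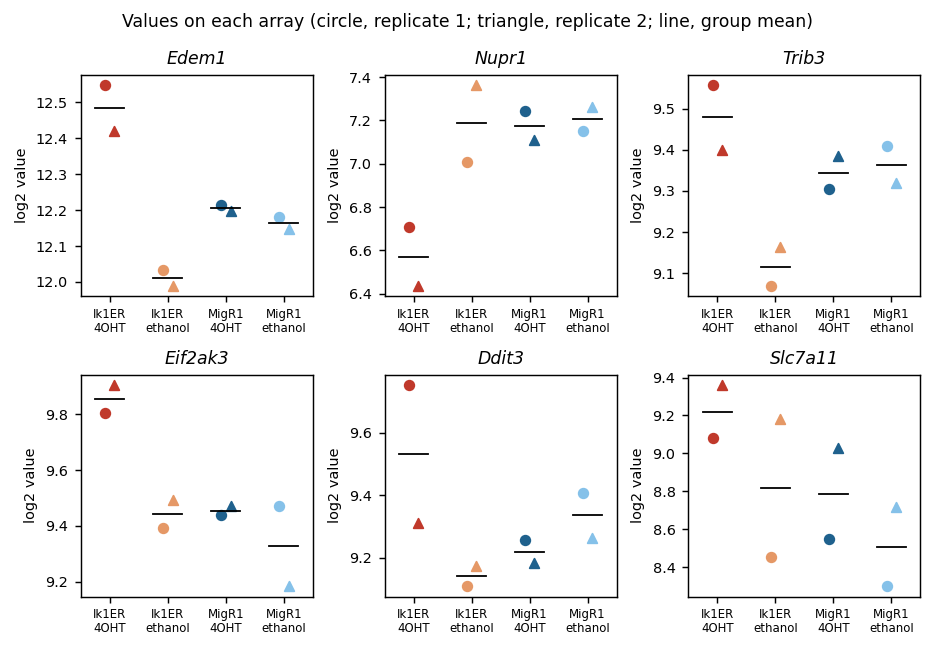
Log2 values of 6 members on every array, with 1 panel per gene, circles for replicate 1, triangles for replicate 2 and a line at each group's mean. Edem1, Nupr1 and Eif2ak3 have Ik1ER 4OHT arrays apart from the other 6, Trib3 has its highest array there, and in Slc7a11 the 2 arrays of each group lie far apart.

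Among the 9 regulators of the integrated stress response 1 was called, Nupr1, and the median difference was 0.01. Atf4, the central transcription factor, read 12.60 and 12.56 in Ik1ER cells in 4OHT and 12.48 and 12.67 in Ik1ER cells in ethanol. Its arrays overlapped, and the interval of the difference, -0.19 to 0.21, leaves room for small changes only. Trib3, a pseudokinase induced by ATF4 and CHOP that feeds back on both, read 9.56 and 9.40 on the Ik1ER 4OHT arrays, against 9.07 and 9.16 on the Ik1ER ethanol arrays. Its groups did not overlap, but the difference of 0.36 (SE 0.09) had an adjusted p of 0.0520 and was not called. In the 8 fits that left out a single array the Trib3 difference ran from 0.28 to 0.44. Ddit3, which encodes CHOP, a factor tied to death under prolonged ER stress, read 9.75 and 9.31 in Ik1ER cells in 4OHT, against 9.11 and 9.17 in Ik1ER cells in ethanol. Most of its difference of 0.39 (SE 0.14, adjusted p 0.173) came from the first 4OHT array. Without Ik1ER 4OHT replicate 2 the difference was 0.61 (adjusted p 0.0184), and without replicate 1 it was 0.17 (0.388).

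The remaining regulators did not pass the test in Ik1ER cells. Atf5, a factor translated in the manner of ATF4, had a difference of -0.24 (adjusted p 0.253), with both 4OHT arrays below both ethanol arrays. Ppp1r15a, the GADD34 subunit that returns eIF2 to its active form, read 8.38 and 8.40 in 4OHT, against 8.24 and 8.36 in ethanol. That difference of 0.09 had an interval of -0.07 to 0.26. Atf3 (0.05), Cebpg, a C/EBP partner of ATF4 (-0.01), and Chac1, which degrades glutathione (-0.06), had overlapping arrays. The value of Nupr1 had the opposite sign to those of Trib3 and Ddit3, which like it are textbook targets of the ATF4 branch. Among the 8 members with a C/EBP-ATF match the differences lay on both sides of 0.

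None of the 9 genes of amino acid supply and one-carbon metabolism was called, and their median difference was -0.02. Asns, asparagine synthetase, read 12.14 and 12.15 in Ik1ER cells in 4OHT, against 12.12 and 12.28 in Ik1ER cells in ethanol. Its difference was -0.05, with an interval of -0.24 to 0.13. Phgdh and Psat1, consecutive enzymes of serine synthesis, had differences of 0.07 and -0.09, and the mitochondrial folate enzymes Shmt2 and Mthfd2 had 0.00 and -0.02. Mthfd2 read 11.17 and 11.23 in 4OHT, against 11.16 and 11.29 in ethanol. The intervals of these 5 enzymes all lay within 0.5 log2 units of 0. The heavy chain Slc3a2 (0.04) and its light chain Slc7a5 (-0.07), which import large neutral amino acids, and Vldlr, a lipoprotein receptor gene under ATF4 (-0.04), had overlapping arrays. Slc7a11 had the widest interval of all members, 0.40 with bounds of -0.20 and 1.01, so changes between those bounds are not excluded.

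Of 11 ER chaperones and folding factors none was called, and the median difference was -0.06. Hspa5, which encodes BiP, the main ER chaperone of the HSP70 kind, read 12.52 and 12.59 in Ik1ER cells in 4OHT, against 12.63 and 12.75 in Ik1ER cells in ethanol. Its difference was -0.14 (interval -0.36 to 0.09), with both 4OHT arrays below both ethanol arrays. Sdf2l1, a partner of BiP, read 9.39 and 9.55 in 4OHT, against 9.71 and 9.86 in ethanol. Its groups did not overlap, and the difference of -0.31 (SE 0.10) had an adjusted p of 0.147. Hsp90b1, the ER member of the HSP90 family (-0.18), and Pdia6, a disulphide isomerase (-0.08), also had 4OHT arrays below ethanol arrays. Dnajc3, the ER co-chaperone p58IPK (0.19), and Manf, a secreted ER stress protein (0.09), had them above. In Calr, calreticulin (0.04), Pdia4, another isomerase (0.09), Hyou1, an exchange factor of BiP (-0.17), Dnajb9, a BiP co-chaperone that acts on IRE1 (-0.06), and Creld2 (0.00) the arrays overlapped. The 6 members with an ERSE match had differences on both sides of 0.

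Of the 3 ERAD genes Edem1 was called and the other 2 were not, with a median of 0.20. Sel1l, the adaptor of the ligase HRD1, had a difference of 0.20 (adjusted p 0.389), and all 5 of its probe sets lay between 0.13 and 0.20. Herpud1, a scaffold of the same complex with a C/EBP-ATF match, had 0.00 with an interval of -0.27 to 0.27. The sensor genes, counted together with Xbp1, had larger differences than most members, with a median size of 0.313, but none of the 4 was called. Eif2ak3, which encodes PERK, read 9.81 and 9.91 in Ik1ER cells in 4OHT, against 9.39 and 9.49 in Ik1ER cells in ethanol. The 4OHT arrays were the highest of the 8, and the difference of 0.41 (SE 0.10) had an adjusted p of 0.0660. In the 8 fits that left out a single array the Eif2ak3 difference ran from 0.36 to 0.46. With the other processing choices listed at the end it ran from 0.29 to 0.41. Xbp1 read 9.89 and 10.03 in 4OHT, against 10.18 and 10.36 in ethanol, without overlap, and its difference was -0.31 (adjusted p 0.214). Atf6 had 0.32 (adjusted p 0.385) and Ern1 had -0.17 (0.609). The values of the sensor genes thus had both signs, and all values of Xbp1 here count both its spliced and unspliced messenger RNA.

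In total the 4OHT arrays lay wholly above the ethanol arrays in 9 members and wholly below in 8 members. Over all genes the shares were 21% above and 21.7% below. 8 of 36 members (22.2%) had an unadjusted p under 0.05, against 17.8% of all genes.

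MigR1 cells in 4OHT against MigR1 cells in ethanol give the effect of the inducer without Ik1ER. By limma 0 of 36 members were called, as were 0% of all 18193 genes. 0 members had an unadjusted p under 0.05, against 386 genes or 2.12%. The differences ran from -0.14 to 0.28 with a median of -0.02, and 35 of 36 intervals lay within 0.5 log2 units of 0. The smallest unadjusted p belonged to Ppp1r15a and Mthfd2. Ppp1r15a read 8.19 and 8.16 on the MigR1 4OHT arrays, against 8.34 and 8.30 on the MigR1 ethanol arrays, a difference of -0.14 (SE 0.07, p 0.0807 before adjustment by limma). Mthfd2 read 11.21 and 11.25 in MigR1 cells in 4OHT, against 11.36 and 11.34 in MigR1 cells in ethanol, a difference of -0.12. In both genes the groups did not overlap, as in 4 members below and 4 above in all, against 13.2% and 16.5% of all genes. Edem1 differed by 0.04 and Nupr1 by -0.03 between MigR1 cells in 4OHT and in ethanol.

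**Figure D3:**
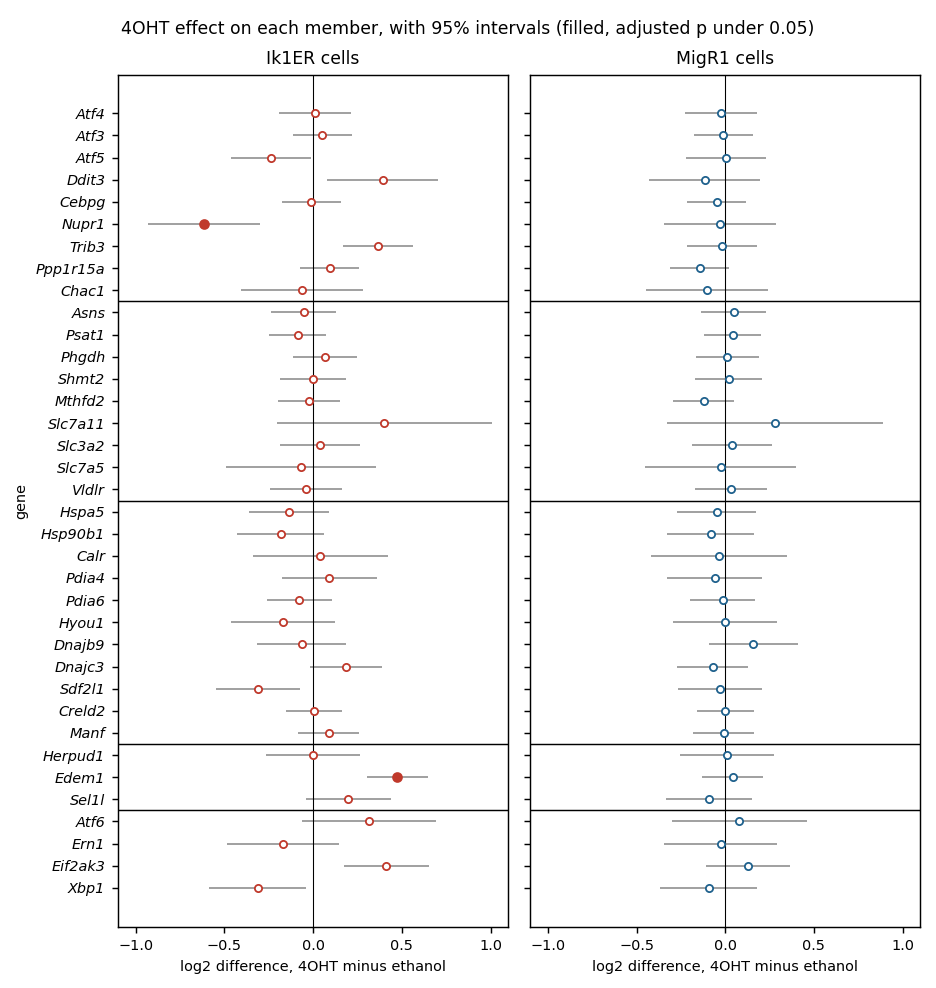
Log2 difference of each member, 4OHT minus ethanol, in Ik1ER cells (left) and MigR1 cells (right), with lines for 95% intervals from limma and filled points at an adjusted p under 0.05. Edem1 and Nupr1 are filled in Ik1ER cells and no member is in MigR1 cells, and Slc7a11 has the widest interval in both.

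Whether the 4OHT effects differed between the lines was tested with the interaction term, the Ik1ER difference minus the MigR1 difference. By limma 0 of 36 members were called, against 230 genes or 1.26% of all genes (0.616% higher and 0.649% lower). At an unadjusted p under 0.05 there were 5 members, against 11.2% of all genes. The 2 of smallest p were Edem1 (0.43, SE 0.10, adjusted p 0.114) and Trib3 (0.38, SE 0.12, adjusted p 0.241). Nupr1 had -0.59 (adjusted p 0.276), Ddit3 0.51 (0.363) and Ppp1r15a 0.24 (0.445). Therefore the calls of Edem1 and Nupr1 in Ik1ER cells are not shown to differ from the effect of 4OHT in MigR1 cells. 17 of the 36 intervals of this term lay within 0.5 log2 units of 0.

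Without inducer, Ik1ER cells in ethanol were set against MigR1 cells in ethanol. By limma 0 of 36 members and 0% of all genes were called, and 2 members had an unadjusted p under 0.05, against 968 genes or 5.32%. Even the Ikzf1 probe set that read higher in both Ik1ER groups, with a difference of 2.75 (SE 0.28) here, was not called. Its limma adjusted p was 0.274 when every probe set was tested on its own. The absence of calls therefore does not show that the lines were alike. Trib3 read 9.07 and 9.16 in Ik1ER cells in ethanol, against 9.41 and 9.32 in MigR1 cells in ethanol, a difference of -0.25 (SE 0.09, adjusted p 0.913). Its Ik1ER ethanol arrays were the lowest of the 8. Atf3 read 4.36 and 4.41 in Ik1ER cells in ethanol, against 4.53 and 4.59 in MigR1 cells in ethanol, a difference of -0.17 at the level of the bacterial controls. Edem1 also had its Ik1ER ethanol arrays below its MigR1 ethanol arrays, with a difference of -0.15 (adjusted p 0.913). In all, 5 members had Ik1ER ethanol arrays wholly below and 1 wholly above, against 16.8% and 20.7% of all genes. The 36 differences ran from -0.25 to 0.31, and their median size was 0.0277 log2 units, against 0.0728 for all genes.

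With inducer, Ik1ER cells in 4OHT were set against MigR1 cells in 4OHT, a comparison that shares its Ik1ER 4OHT arrays with the comparison of 4OHT and ethanol in Ik1ER cells. 1 of 36 members (2.78%) was called, Nupr1, against 925 genes or 5.08% of all genes (2.91% higher and 2.17% lower). Nupr1 was lower, with a difference of -0.60 (SE 0.14, adjusted p 0.0474), and it was not called without Ik1ER 4OHT replicate 2 (-0.47, 0.180), without either MigR1 4OHT array (-0.54 to -0.67, 0.157 to 0.227) without either MigR1 ethanol array (-0.60, 0.0838) or without both second Ik1ER arrays (-0.47, 0.0797). Eif2ak3 read 9.81 and 9.91 in Ik1ER cells in 4OHT, against 9.44 and 9.47 in MigR1 cells in 4OHT, without overlap. Its difference of 0.40 (SE 0.10) had an adjusted p of 0.0746, and Edem1 had 0.28 (SE 0.07, 0.0798). Trib3 differed by 0.14 here, against 0.36 within Ik1ER cells. The 36 differences ran from -0.60 to 0.43 with a median of -0.02. The Ik1ER arrays lay wholly above in 10 members and wholly below in 8, against 22.2% and 22.6% of all genes.

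Other probe sets of the members gave a second reading of the same RNA. The 36 members had 88 probe sets, 26 members more than 1, and 40 of the 52 not used above were brighter than the brightest bacterial control. Tested over every probe set on its own, 2 member probe sets were called in Ik1ER cells in 4OHT against ethanol, 1 of Edem1 and 1 of Nupr1. The 4 Xbp1 probe sets had differences of -0.31, -0.35, -0.45 and -0.08, and the 3 of Atf6 had 0.32, 0.33 and 0.22. Thus every Xbp1 probe set was below 0 and every Atf6 probe set above 0, although none was called. The 2 of Trib3 had 0.36 and 0.40, the 5 of Dnajc3 ran from 0.07 to 0.34, and the 3 of Atf4 ran from -0.16 to 0.12. Those of Ern1, 3 of them dimmer than the controls, had both signs, from -0.17 to 0.29. In Ik1ER cells against MigR1 cells in 4OHT a probe set of Dnajc3 was called at 0.41 (adjusted p 0.0413), while the probe set that stood for that gene had 0.29 (0.227).

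**Figure D4:**
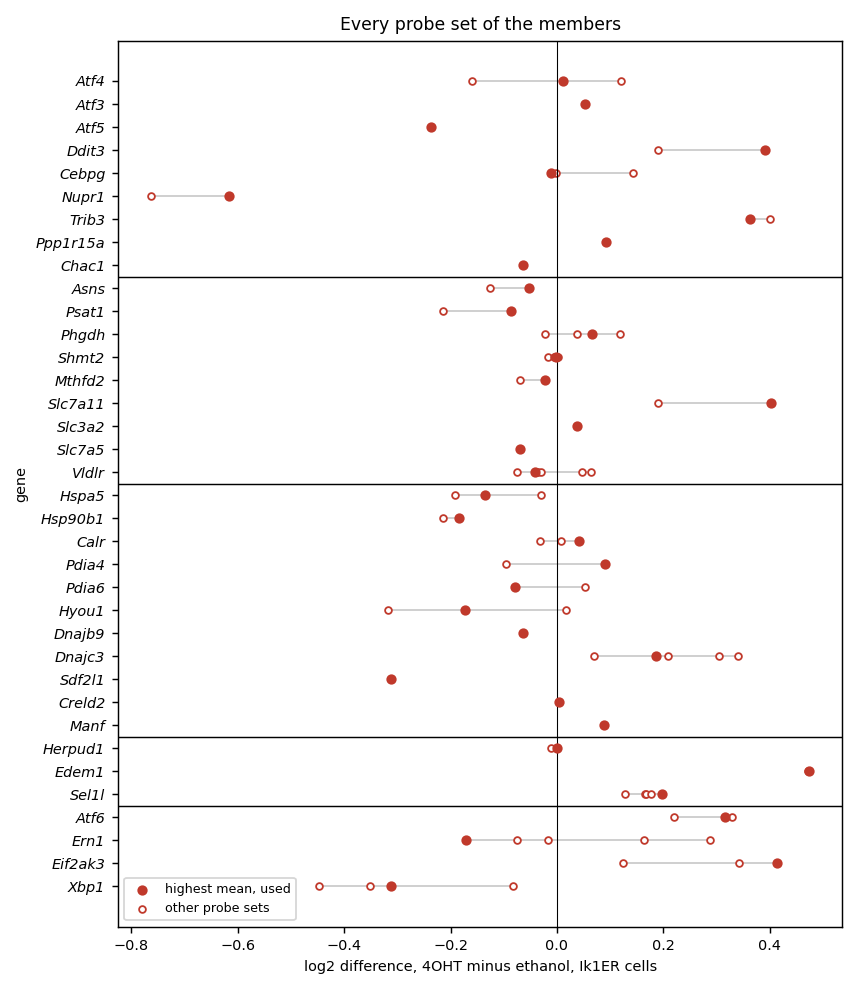
Log2 difference in Ik1ER cells, 4OHT minus ethanol, of every probe set of each member, with filled points for the brightest probe set of a gene, open points for the others and a line from the lowest to the highest. The 2 Edem1 probe sets lie on each other at 0.47, and those of Nupr1 both lie left of -0.6.

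Genes of the same pathways that are not among the 36 were counted from lists by role. For comparison, 5.34% of all genes were called in Ik1ER cells in 4OHT against ethanol, 2.8% higher and 2.53% lower. Of 13 measured eIF2 kinases and eIF2, eIF2B and phosphatase subunits (14 listed), 1 was lower in Ik1ER cells in 4OHT against ethanol and 0 higher, with a median of 0.01. That gene was Eif2ak2, the RNA-activated kinase PKR, which read 7.19 and 7.12 in Ik1ER cells in 4OHT, against 7.74 and 7.92 in Ik1ER cells in ethanol. Its difference was -0.68 (SE 0.11, adjusted p 0.0142), and the call was lost without the second array of either Ik1ER group (adjusted p of at most 0.0957) and without both (-0.55, 0.188). The PKR value had the opposite sign to that of PERK, and the other measured kinases, Eif2ak4 (GCN2, -0.31, adjusted p 0.196) and Eif2ak1 (HRI, 0.18, 0.203), were not called.

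Of 25 measured further ATF4 targets (27 listed) 1 was higher and 1 lower, with a median of -0.07. Cth, which makes cysteine from cystathionine, rose: it read 10.34 and 10.01 in Ik1ER cells in 4OHT, against 9.53 and 9.49 in Ik1ER cells in ethanol. Its difference was 0.67 (SE 0.11, adjusted p 0.0124), not called without either Ik1ER ethanol array (adjusted p 0.0617 and 0.0796). Psph, the last enzyme of serine synthesis, fell: it read 11.17 and 11.19 in 4OHT, against 11.54 and 11.66 in ethanol. Its difference was -0.42 (SE 0.08, adjusted p 0.0246), not called when any single Ik1ER array was left out (up to 0.148) or without both second ones (-0.37, 0.182). Psph fell while Phgdh and Psat1, which act before it, had values of 0.07 and -0.09. None of 19 aminoacyl tRNA synthetases (20 listed) was called, with differences from -0.11 to 0.20 and a median of -0.04.

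Of 16 further ER chaperones and folding enzymes 1 fell and 0 rose, with a median of 0.01. Fkbp11, a peptidyl-prolyl isomerase of the ER and a known XBP1 target, read 5.68 and 5.61 in Ik1ER cells in 4OHT, against 6.55 and 6.51 in Ik1ER cells in ethanol. Its difference of -0.89 (SE 0.07, adjusted p 0.000659) kept its call without any single array, and with the mean over its probe sets it was -0.27 (adjusted p 0.112). Of 22 further ERAD and translocation genes (24 listed) 1 rose and 0 fell, with a median of 0.13. Os9, a lectin that hands glycoproteins to the Sel1l complex, read 9.04 and 9.11 in Ik1ER cells in 4OHT, against 8.56 and 8.67 in Ik1ER cells in ethanol. Its difference was 0.46 (SE 0.08, adjusted p 0.0144), not called without Ik1ER 4OHT replicate 2 or Ik1ER ethanol replicate 1 (up to 0.0945), without both second Ik1ER arrays (0.48, 0.0885) or with the mean over its probe sets (0.33, 0.0536). Edem3, a relative of Edem1, had 0.33 (adjusted p 0.0945) and Sec63, a translocation factor, 0.30 (0.0582), neither called. None of 13 further sensors and proteases was called, with differences from -0.16 to 0.35.

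In MigR1 cells in 4OHT against ethanol, and in Ik1ER against MigR1 cells in ethanol, no gene of these lists was called. In both comparisons 0% of all 18193 genes were called. In Ik1ER against MigR1 cells in 4OHT, 5.08% of all genes were called. From these lists the genes called there were Eif2ak2 (-0.69), Psph (-0.37), Slc1a5, a neutral amino acid transporter (-0.32), Cth (0.55), Fkbp11 (-0.86) and Os9 (0.45). All of these but Slc1a5 had Ik1ER 4OHT arrays apart from the other 6 arrays. Of the 8 fits that left out a single array, Fkbp11 kept the call in 8, Eif2ak2 in 6, Os9 in 5, Cth in 3, and Psph and Slc1a5 in 0 (adjusted p up to 0.258 and 0.221). Without both second Ik1ER arrays Eif2ak2 (adjusted p 0.0842), Psph (0.107), Slc1a5 (0.0939) and Os9 (0.0758) were not called, and with the mean over its probe sets Fkbp11 had -0.32 (0.0623).

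**Figure D5:**
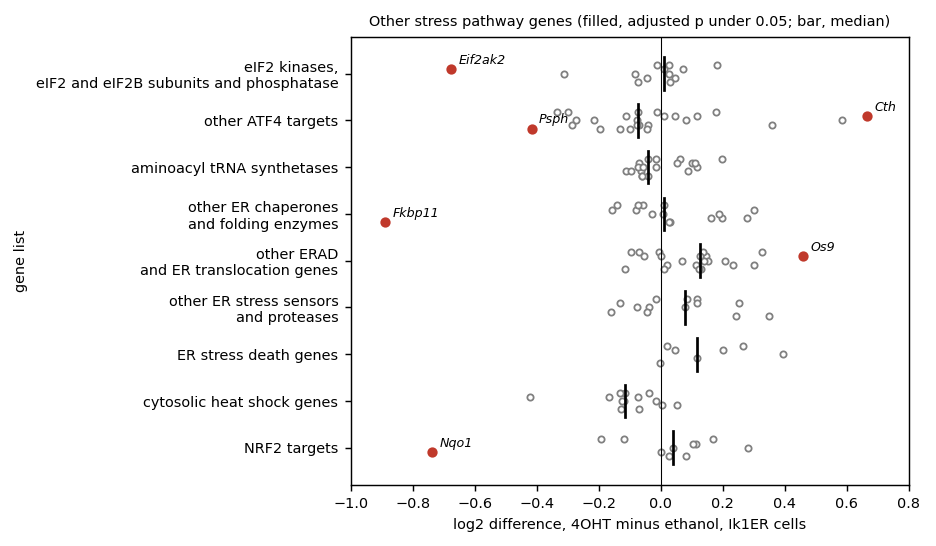
Log2 difference in Ik1ER cells, 4OHT minus ethanol, of the genes in 9 further stress pathway lists, 1 point per gene, with filled points at an adjusted p under 0.05 and a bar at each list's median. The 6 filled points are Eif2ak2, Psph, Fkbp11 and Nqo1 below 0 and Cth and Os9 above 0, and the list medians run from -0.11 to 0.13.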

How the data were processed

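The deposited values are log2 signals, which the submitters' processing notes credit to RMA, and were used as given, 1 column per array. The version, filters and annotation behind them were not given in the sources used here. Of 45037 probe sets, not counting 64 controls, 34945 had 1 gene symbol in the platform annotation, 932 several and 9160 none. The probe set with the highest mean over the 8 arrays stood for each of 18193 genes. For 4 members (Nupr1, Trib3, Phgdh and Shmt2) it was of the kind that may match other transcripts. Group means were fitted with limma 3.58.1 (lmFit and eBayes) in R 4.3.3 over all 8 arrays, with 4 residual degrees of freedom and 5 contrasts, and p-values were adjusted by Benjamini-Hochberg over all genes within each contrast. The script was tested on simulated data. The number of arrays limits the precision. All 36 members are named. Array values are given for members called and for the 2 of smallest p in each contrast; those of Ddit3, Slc7a11, Xbp1, Sdf2l1, Atf4, Hspa5 and Asns, and uncalled genes of other lists, were added after their values were seen. From other lists the called genes are named. Members and lists were chosen with earlier results of these data known. Alternatives changed the replicate block, filter, moderation, normalization, centring, probe set rule and arrays fitted. Promoter sequences are RefSeq's (GRCm38.p6).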

Additional observations from a re-analysis of the deposited data

Results flagged for a closer look

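The interaction term of limma called 4 genes of the lists used here, none of them among the 36 members. They were 1 of 16 further ER chaperones and folding enzymes, 1 of 11 NRF2 targets, 1 of 8 T lineage markers and 1 of 7 myeloid markers. In the other lists none was called. Over all genes the term called 230, or 1.26%. By this term over all 8 arrays, each had a 4OHT effect in Ik1ER cells that differed from its effect in MigR1 cells. Fkbp11, the ER isomerase, had an interaction of -0.96 (SE 0.10, adjusted p 0.00639): the arrays read 5.68 and 5.61 in Ik1ER cells in 4OHT, 6.55 and 6.51 in Ik1ER cells in ethanol, 6.52 and 6.48 in MigR1 cells in 4OHT and 6.46 and 6.39 in MigR1 cells in ethanol. Nqo1, a quinone reductase under NRF2, had -0.91 (SE 0.15, adjusted p 0.0361): it averaged 5.95 ± 0.06 in Ik1ER cells in 4OHT, 6.69 ± 0.04 in Ik1ER cells in ethanol, 7.03 ± 0.12 in MigR1 cells in 4OHT and 6.86 ± 0.20 in MigR1 cells in ethanol (SD, n = 2 each). Cd3g, a chain of the T cell receptor complex, had -0.70 (SE 0.13, adjusted p 0.0485). Cd14, a myeloid co-receptor, had -1.30 (SE 0.14, adjusted p 0.00643). Fkbp11 and Cd14 kept these calls when any single array was left out, but not without both second Ik1ER arrays (-0.95, adjusted p 0.0504, and -1.39, 0.0532), and Fkbp11 with the mean over its probe sets had -0.39 (0.185). Without both second Ik1ER arrays Nqo1 (0.162) and Cd3g (0.136) were not called either. Nqo1 kept its call only without MigR1 ethanol replicate 2, with adjusted p up to 0.145 otherwise, and Cd3g only without Ik1ER 4OHT replicate 1, with up to 0.198.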

How the results depend on the processing

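No called member changed sign under any alternative run. In Ik1ER cells in 4OHT against ethanol, where 2 members were called, a filter on dim genes gave 4 and trend and robust moderation gave 4, in both cases Edem1, Nupr1, Trib3 and Eif2ak3. Fitting only the arrays compared gave 0, and leaving out both second Ik1ER arrays gave 0. The replicate block gave 3 (Edem1, Sdf2l1 and Xbp1, but not Nupr1, whose adjusted p was 0.0563), the mean over probe sets 3 and the other probe set rule 3, while repeated quantile normalization, centring and testing every probe set (chosen after seeing the data) gave 2. Leaving out 1 array gave 0 to 3. For the interaction, where 0 were called, trend and robust moderation gave 1 (Edem1), and leaving out 1 array gave 0 to 1, the 1 being Ddit3 without Ik1ER 4OHT replicate 2. For Ik1ER against MigR1 cells in 4OHT, where 1 was called, the replicate block, centring, fitting only the arrays compared and leaving out both second Ik1ER arrays gave 0, the filter and the moderation 3, and testing every probe set 2. Leaving out 1 array gave 0 to 1. The cause of these changes was not tested. In the other 2 comparisons every alternative gave 0 members. Over all genes the calls ranged from 389 to 1354 in Ik1ER cells, from 52 to 444 for the interaction and from 237 to 1344 between the lines in 4OHT. The replicate numbers are not stated to mark a shared day or culture. Same-numbered arrays deviated together within lines (correlation over genes 0.446 in Ik1ER and 0.267 in MigR1 cells) and less across lines (-0.07 to 0.10). Over the 36 members alone these correlations were 0.184 and 0.523 within lines and 0.143 to 0.412 across lines. With 2 numbers and no label that ties them, the pairing was not taken as given. In 13 of 36 members (36.1%), 9 of them ER chaperones or folding factors, the second array read higher in all 4 groups, against 7.3% of all genes. With 2 arrays a group, small changes of single members could not be detected, and dim probe sets such as those of Atf3 and Vldlr give little room for a fall.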

Other observations

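Neighbouring stress programs were counted in Ik1ER cells in 4OHT against ethanol, where 5.34% of all genes were called. Of 13 measured cytosolic heat shock genes (15 listed) none was called, and 11 lay below 0 with a median of -0.11, against -0.004 for all genes. Their 4OHT arrays lay wholly below the ethanol arrays in 4 of the 13 and wholly above in 0. Over all genes the shares were 21.7% below and 21% above. Hspa1b, an inducible HSP70, had the lowest value at -0.42 (limma adjusted p 0.158). Of 11 measured NRF2 targets (12 listed) 1 was called, Nqo1, at -0.74 (adjusted p 0.00827), while Hmox1, which degrades haem and responds to several stresses, had 0.28 (0.209). Nqo1 was not called when Ik1ER ethanol replicate 1 (adjusted p 0.0556) or both second Ik1ER arrays (0.112) were left out. Of 7 measured genes of ER stress death (8 listed) none was called. Bcl2l11, which encodes the death protein BIM, had 0.39 (adjusted p 0.550), and Bbc3, which encodes PUMA, had 0.27 (0.118). In Ik1ER against MigR1 cells in 4OHT, Nqo1 was called at -1.08 and no other gene of these 3 lists was.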
